A study of Caenorhabditis elegans with 2 samples.

Results

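Below the list of ELT-1 peaks that passed the irreproducible discovery rate (IDR) procedure lay 296 weaker peaks that both replicates nevertheless ranked highly. They were chosen by the authors' own peak values from the list called on the pooled replicates, which held 30000 peaks, 29973 of them on nuclear chromosomes. A peak was kept when it overlapped no IDR peak by 1 bp and overlapped, in each replicate's list, a peak among the 2800 with the highest signal. These 296 are called weaker shared peaks here. They were compared with the 1377 nuclear IDR peaks, of 1400 in all, and with 27699 unshared peaks, which overlapped no IDR peak, were not weaker shared peaks and had a pooled signal at or above the lowest of the weaker shared peaks.

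The study used ChIP-seq, the sequencing of DNA that comes down with an immunoprecipitated protein, to map ELT-1 in whole embryos of mixed stages from hermaphrodites of Caenorhabditis elegans strain OP354, genotype unc-119(tm4063) III; wgIs354. The insertion wgIs354 makes ELT-1 with GFP and FLAG fused to its C-terminal end. The 2 biological replicates form 1 group, so there was no untagged or wild-type group to set beside the values, and the tagged protein came from a transgene. Peaks of whole embryos do not tell in which cells a site was bound, and binding in few cells and weak binding in many cannot be told apart.

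ELT-1 is a zinc finger transcription factor of the GATA family, which recognises DNA sites built around the letters GATA. It acts early in the embryo to specify the epidermis, the outer cell layer that secretes the cuticle collagens, and acts upstream of other epidermal regulators such as elt-3, lin-26 and nhr-25. The IDR procedure keeps the peaks whose ranks are reproducible between replicates, and peaks under its threshold are usually set aside.

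Windows at individual summits show the kinds of sequence found. The first set holds the 6 weaker shared peaks of highest pooled signal with at least 2 WGATAR sites within 50 bp of the summit (W is A or T, and R is A or G), which is the classical site of GATA factors. This set is shown because WGATAR was more common at the weaker shared peaks than in their flanks, although less common than at IDR peaks. Capitals mark WGATAR on either strand, where TTATCT, for example, is AGATAA read on the other strand. All sequences are from ce11 (WBcel235), plus strand, 5′ to 3′, centred on the summit.
ZK154.6 promoter, X:7794489-7794589: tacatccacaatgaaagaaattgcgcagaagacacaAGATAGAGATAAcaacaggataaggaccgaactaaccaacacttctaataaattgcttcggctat
dao-2 promoter, II:4562704-4562804: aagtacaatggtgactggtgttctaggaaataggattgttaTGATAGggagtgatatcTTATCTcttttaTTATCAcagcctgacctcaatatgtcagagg
C06E2.5 promoter, X:8858803-8858903: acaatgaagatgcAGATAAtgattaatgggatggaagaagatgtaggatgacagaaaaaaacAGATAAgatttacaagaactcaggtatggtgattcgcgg
hlh-30 intron, IV:4032523-4032623: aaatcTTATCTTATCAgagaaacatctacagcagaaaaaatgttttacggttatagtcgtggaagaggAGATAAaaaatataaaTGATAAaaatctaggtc
intergenic, nearest 5′ end T27E7.3, IV:14531843-14531943: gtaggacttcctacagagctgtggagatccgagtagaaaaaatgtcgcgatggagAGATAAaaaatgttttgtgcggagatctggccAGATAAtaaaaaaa
wdr-62 intron, V:9454040-9454140: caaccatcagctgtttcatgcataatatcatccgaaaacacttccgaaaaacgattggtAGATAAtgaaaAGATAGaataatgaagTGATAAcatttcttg

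The second set holds the 3 weaker shared peaks of highest pooled signal with no GATA on either strand, and is shown because 50 of the 296 had no GATA within 100 bp of the summit. Capitals mark GAGAGA and CGTCTC, on either strand.
intergenic, nearest 5′ end unc-116, III:8356546-8356646: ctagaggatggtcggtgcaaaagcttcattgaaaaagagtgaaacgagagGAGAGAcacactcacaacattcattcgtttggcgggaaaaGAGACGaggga
T14G11.1 promoter, X:2688738-2688838: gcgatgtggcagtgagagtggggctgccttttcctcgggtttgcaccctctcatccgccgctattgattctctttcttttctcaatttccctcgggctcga
adm-2 promoter, X:13687192-13687292: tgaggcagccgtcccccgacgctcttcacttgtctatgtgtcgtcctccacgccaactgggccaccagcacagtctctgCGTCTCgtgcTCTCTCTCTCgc

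The third set shows 3 of the 4 promoter peaks at genes of the epidermal lists, the tissue ELT-1 specifies. The promoters of nhr-25, col-10 and pdi-6 had no WGATAR within 50 bp of the summit, and capitals mark CGATAA in the col-10 window. Within 100 bp the col-10 peak did hold 1 WGATAR, 86.5 bp from its summit, while those of nhr-25 and pdi-6 held none. The other promoter, of che-14, is not shown and held 1 WGATAR 28.5 bp from the summit.
nhr-25 promoter, X:13008715-13008815: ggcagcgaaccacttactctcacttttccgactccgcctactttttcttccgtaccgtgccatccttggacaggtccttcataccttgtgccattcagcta
col-10 promoter, V:9165491-9165591: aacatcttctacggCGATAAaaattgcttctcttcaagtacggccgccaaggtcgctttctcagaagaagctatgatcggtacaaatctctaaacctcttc
pdi-6 promoter, X:7068613-7068713: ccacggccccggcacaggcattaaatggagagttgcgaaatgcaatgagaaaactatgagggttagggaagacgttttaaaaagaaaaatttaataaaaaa

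The weaker shared peaks lay just under the IDR list in pooled signal, with a tail of much weaker ones. Signal is the authors' value per peak, whose scale is not stated and differs between lists, so it is read only within a list, and it chose these peaks. Their pooled signal ran from 4.95 to 27.8 with a median of 22.9, whereas the IDR peaks began at 27.8 and had a median of 39.3. The highest unshared peak, at 27.8202, was also below the lowest nuclear IDR peak, at 27.8227. Pooled signal alone thus separated the nuclear IDR peaks from the peaks that overlapped none. In the pooled list they ranked from 1402 to 29628, with a median rank of 1936. Most of the tail came from peaks next to a stronger one. Of the 74 peaks with the lowest signal, up to 16.9, 24 were the only or the strongest peak of their region. The 296 peaks merged into 243 regions, of which 191 held 1 peak, 51 held 2 and 1 held 3. The strongest peak of each region had a median pooled signal of 24.1 and a lowest value of 9.10, and the other 53 had a median of 10.2. The 296 peaks rested on 244 distinct peaks of replicate 1 and 245 of replicate 2, so peaks of 1 region are not independent.

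The replicate lists differ in length, with 30000 peaks in replicate 1 and 26001 in replicate 2, and the ranks chose these peaks, so the ranks are only described. In replicate 1 the signal of the overlapping peak ran from 12.9 to 59.8 with a median of 15.5 and a median rank of 1956. In replicate 2 it ran from 7.71 to 21.3 with a median of 10.2 and a median rank of 1531. Both replicates placed 23 peaks within their first 1400, the length of the IDR list, and 141 were beyond it in both. At the rank threshold, the last peak inside by replicate 1 was an intronic peak of nhr-19, rank 2798 with a signal of 12.9, and the first outside had rank 2809 and a signal of 12.8. By replicate 2 the last inside had rank 2799 and a signal of 7.71, and the first outside had rank 2806 and a signal of 7.70, so values on both sides of the threshold were nearly the same.

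**Figure D1:**
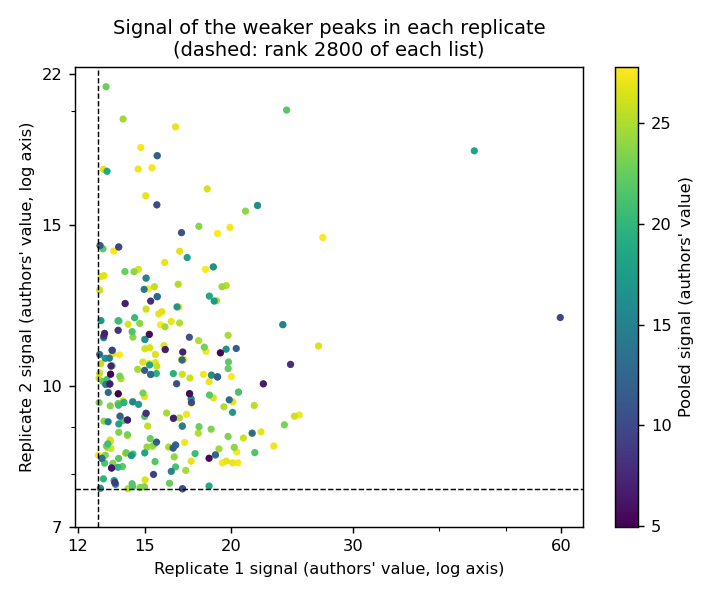
Signal of each of the 296 weaker shared peaks in replicate 1 (x axis) and replicate 2 (y axis), both the authors' values on log axes, coloured by pooled signal, with dashed lines at rank 2800 of each list. Most points lie close to both dashed lines, and the highest are 59.8 in replicate 1 and 21.3 in replicate 2.

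Distances from the weaker shared peaks to IDR peaks are only described, because the rule barred any overlap and no background distance was computed. The nearest IDR summit was at least 211 bp away, with a median distance of 14045 bp. It lay within 1000 bp of 23 peaks, within 2000 bp of 55 and within 5000 bp of 92. Only 2 of the 296 were selected through replicate peaks that also met an IDR peak.

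WGATAR was more common at these summits than in the sequence around them and less common than at IDR summits. Within 100 bp of the summit, 159 of 296 weaker shared peaks (53.7%) held at least 1 WGATAR. The share was 38.1% (213 of 559) in windows of the same length centred 1000 bp to each side, with an odds ratio of 1.89 (95% interval 1.403 to 2.53, Fisher's exact test, two-sided, adjusted p = 3.34e-05). At IDR summits the share was 65.2% (898 of 1377), and the weaker shared peaks were lower, with an odds ratio of 0.619 (0.477 to 0.805, adjusted exact p = 4.20e-04). With the limit at rank 2000, which left 114 peaks, that odds ratio was 0.708 and did not pass (adjusted exact p = 0.139). Peaks are not replicates, so these intervals and p-values cover counting error and not the spread between cultures, and peaks of 1 region share sequence. Against the 345 IDR peaks in the lowest 25% of signal, whose share was 55.4%, the odds ratio was 0.936 (0.677 to 1.29), a comparison chosen after seeing the data.

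Being ranked highly in both replicates did not go with a detectably different share of WGATAR once pooled signal was alike. All unshared peaks held WGATAR in 39.0%, lower than the weaker shared peaks (odds ratio 1.81, 1.43 to 2.30, Fisher's exact test, adjusted p = 2.08e-06), but their median pooled signal was 7.70. Among unshared peaks with a pooled signal within the middle range of the weaker shared peaks, 17.03 to 26.04, the share was 50.4% (738 of 1464). In the same range it was 54.1% of weaker shared peaks (80 of 148), with an odds ratio of 1.16 (0.813 to 1.65). The median signal still differed there, 22.9 against 19.9. Of those 1464 unshared peaks, 630 met a top-ranked peak in replicate 1 and 413 in replicate 2.

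**Figure D2:**
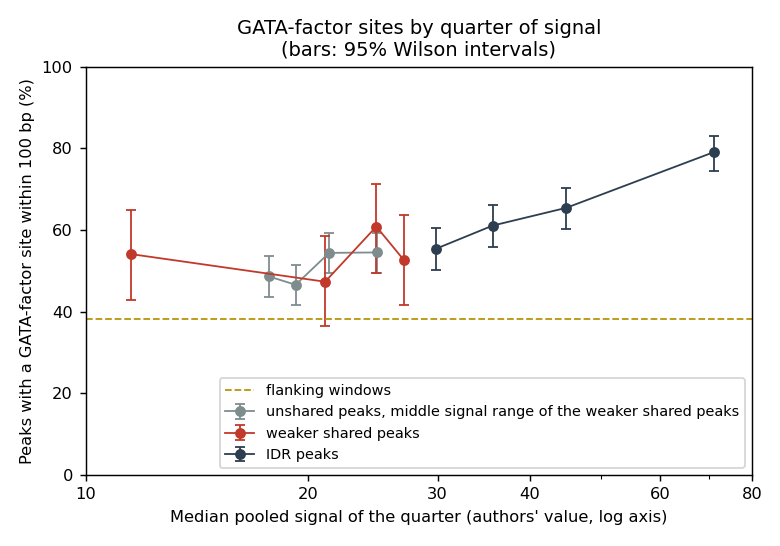
Share of peaks with WGATAR within 100 bp of the summit (y axis, %) against the median pooled signal of each 25% of peaks (x axis, authors' value, log axis), with 95% Wilson intervals. The weaker shared peaks lie between 47.3% and 60.8% with overlapping intervals, IDR peaks run from 55.4% to 79.1%, and the dashed line marks the flanking windows at 38.1%.

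Within the weaker shared peaks the share did not follow signal or location beyond counting error. In successive groups of 25% of the peaks by pooled signal, from lowest to highest, it was 54.1%, 47.3%, 60.8% and 52.7%. Above the median signal it was 56.8% and below it 50.7% (odds ratio 1.28, 0.788 to 2.07, adjusted exact p = 0.439). It was 54.1% for summits in promoters and 53.5% elsewhere (odds ratio 1.03, 0.622 to 1.70, adjusted exact p = 1). The strongest peak of a region (53.5%) and the other peaks of a region (54.7%) had similar shares, with an odds ratio of 0.952 (0.499 to 1.80).

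The sites clustered near the summit. In the 159 peaks with WGATAR the nearest site lay a median of 28.5 bp from the summit, and within 25 bp in 72. One site was present in 93 peaks, 2 in 44 and 3 or more in 22, with at most 7, in the intron of wdr-62 printed above. At least 2 sites were present in 22.3% of weaker shared peaks, 10.6% of flanking windows (odds ratio 2.43, adjusted exact p = 9.72e-06) and 31.5% of IDR peaks (odds ratio 0.624, adjusted exact p = 0.00161), by Fisher's exact test.

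**Figure D3:**
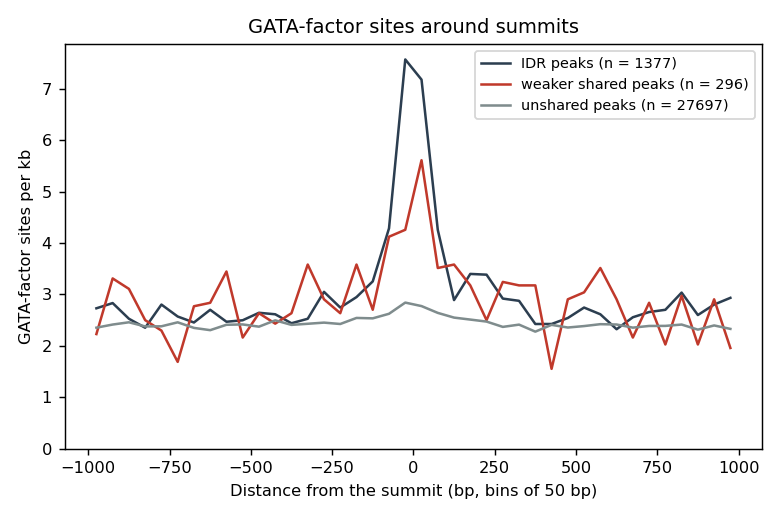
Number of WGATAR sites per kb (y axis) by distance from the summit (x axis, bp, bins of 50 bp) for weaker shared peaks, IDR peaks and unshared peaks. The weaker shared peaks reach 5.61 sites per kb next to the summit, below the 7.57 of the IDR peaks and above the 2.84 of the unshared peaks.

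Of the forms of the GATA site, AGATAA and AGATAG passed the test against the flanks. AGATAA was present at 25.3% of weaker shared peaks, against 12.9% of flanking windows (odds ratio 2.30, 1.57 to 3.34, adjusted exact p = 1.37e-05) and 40.8% of IDR peaks (odds ratio 0.492, 0.366 to 0.658, adjusted exact p = 4.70e-06). AGATAG was present at 17.6%, against 6.26% of flanking windows (odds ratio 3.19, 1.98 to 5.18, adjusted exact p = 1.56e-06) and 16.9% of IDR peaks (odds ratio 1.05, 0.736 to 1.47, adjusted exact p = 0.798). AGATAA was therefore lower than at IDR peaks, and for AGATAG no difference was detectable, although the difference between the forms was not tested. The forms with a leading T did not pass the test against the flanks. TGATAA was at 19.9% against 18.6% and TGATAG at 8.45% against 8.41%. CGATAA, which is not a WGATAR site, was at 12.8% against 6.44% of flanking windows (odds ratio 2.14, 1.29 to 3.56, adjusted exact p = 0.00295). Each p was adjusted over 10 motifs. In the lowest 25% of IDR peaks AGATAA was at 25.8% (odds ratio 0.976, 0.672 to 1.42) and AGATAG at 14.8% (odds ratio 1.23, 0.787 to 1.92).

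For 2 sequences without GATA the weaker shared peaks exceeded their flanks, and no difference from the IDR peaks was detectable. GAGAGA was present at 38.5%, against 13.8% of flanking windows (odds ratio 3.92, 2.76 to 5.57, adjusted exact p = 9.94e-15) and 482 of 1377 IDR peaks (odds ratio 1.16, 0.889 to 1.52, adjusted exact p = 0.366). CGTCTC was present at 20.6%, against 7.51% of flanking windows (odds ratio 3.20, 2.05 to 5.00, adjusted exact p = 2.13e-07) and 19.5% of IDR peaks (odds ratio 1.07, 0.769 to 1.47, adjusted exact p = 0.764). Of the 50 peaks with no GATA, 29 held GAGAGA or CGTCTC, and 137 of all 296 did. GAGAGA was at 32.7% of the peaks with WGATAR and 45.3% of those without (adjusted exact p = 0.0624 by Fisher's exact test). Base composition moved with these results. The median GC content of the windows was 40.8% at weaker shared peaks, 41.3% at IDR peaks, 35.3% in the flanks and 35.8% at unshared peaks, and its part in the shares was not tested.

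With reverse complements counted as 1, 325 of all possible 6-mers differed between the weaker shared peaks and their flanks (15.6% of those tested), 203 higher and 122 lower. Among the 48 with GATA inside, 14 were higher. The smallest p-values belonged to AAAATT, at 31.8% of summits and 60.5% of flanks, and to GAGAGA. The next, at 23.3% against 5.01% with an odds ratio of 5.76, was CCTCTC. Against the IDR peaks 2 were called (0.0962% of those tested), both lower at the weaker shared peaks and both GATA sites. They were AGATAA (odds ratio 0.492, adjusted exact p = 9.78e-04) and GATAAC, at 10.1% against 20.4% (adjusted exact p = 0.0175). None was called with 50% overlap or with the limit at rank 2000. Before adjustment 162 had a p under 0.05.

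Summits were most often in promoters, with the promoter of a protein-coding gene taken to begin 1000 bp before each of its 5′ ends and to stop 200 bp after it. The count was 109 of 296 (36.8%), while 102 (34.5%) were intergenic, 53 (17.9%) in introns, 13 (4.39%) in coding sequence and 14 (4.73%) in other exons. Promoters take up 26.2% of nuclear bases, intergenic sequence 22.8%, introns 26.6% and coding sequence 18.9%. At IDR peaks 44.95% of summits were in promoters (odds ratio 0.714, 0.545 to 0.931, adjusted exact p = 0.0445) and 27.02% intergenic (odds ratio 1.42, 1.07 to 1.87, adjusted exact p = 0.0445). The promoter difference is not firm. With 1 peak per region the share was 37.9% and the adjusted p 0.147. Against the lowest 25% of IDR peaks alone, at 49.0%, it was lower with all 296 peaks (adjusted exact p = 0.0142) and with 1 peak per region (p = 0.00893, Fisher's exact test), chosen after seeing the data. Coding sequence was rarer than at unshared peaks, where it took 17.3% of summits (odds ratio 0.220, 0.115 to 0.382, adjusted exact p = 2.15e-10). Those peaks had a median pooled signal of 7.70 against 22.9, and coding sequence was not compared at like signal. For promoters, 32.1% of all unshared peaks became 48.0% in the middle range of signal. There the weaker shared peaks had 40.5% (odds ratio 0.738, 0.514 to 1.05, Fisher's exact test, adjusted p = 0.339).

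**Figure D4:**
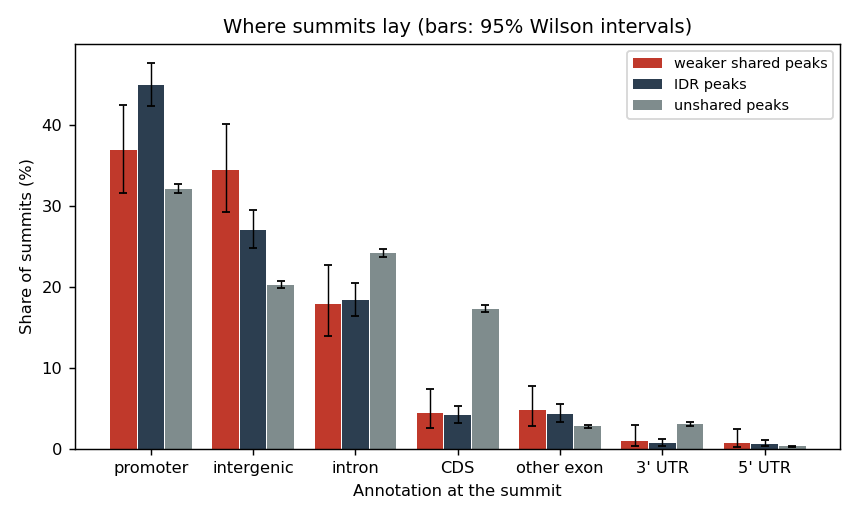
Share of summits (y axis, %) in each annotation class (x axis) for weaker shared peaks, IDR peaks and unshared peaks, with 95% Wilson intervals. Coding sequence holds 4.39% of the weaker shared peaks, 4.14% of the IDR peaks and 17.3% of the unshared peaks, which are not matched in pooled signal.

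By chromosome, 58 of 296 summits (19.6%) lay on X, which holds 17.7% of nuclear sequence. The IDR peaks had 24.2% there (odds ratio 0.764, 0.549 to 1.05, Fisher's exact test, adjusted p = 0.576 over 6 chromosomes). A tRNA gene lay within 100 bp of 8 summits and a snoRNA gene within 100 bp of 1. The share near tRNA, snoRNA or snRNA genes was 3.04%, against 3.27% of IDR peaks and 1.09% of unshared peaks, which were not matched in pooled signal.

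A weaker shared peak lay in the promoter of 117 of 19985 protein-coding genes (0.585%). Of these genes 110 had no IDR summit in the promoter and 7 had both, so that with the 710 genes of the IDR list 820 had either. The 25 genes with the highest signal shared 21 peaks, of which 9 held WGATAR, and their pooled signal was at least 26.7. The share of all genes, 0.585%, is the background for every count in a gene list that follows, and 3.55% is that for the IDR list. No list was tested.

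Over the 361 genes of 7 epidermal lists, 4 (1.11%) had a weaker shared peak in the promoter, against 0.585% of all genes. Of 21 epidermal regulators 1 had a weaker shared peak, nhr-25, and of 176 cuticle collagens 1 (0.568%), col-10. Of 30 genes of the apical matrix and junctions, 59 hedgehog-related genes, 29 epidermal antimicrobial peptides and 11 GATA factors none had one, which allows shares of up to 10%, 5.08%, 10.3% and 27.3% by counting, so these zeros do not set the lists apart from all genes. Of 29 patched-related genes 1 had one, che-14, and of 17 collagen-modifying enzymes 1, pdi-6. The IDR list held 4 of the 21 regulators, 16 of the 176 collagens and 9 of the 30 matrix and junction genes in promoters, where all genes had 3.55%.

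The summit at nhr-25, a nuclear hormone receptor needed in epidermal cells, lay 121 bp upstream of a 5′ end. Its pooled signal was 12.9, with 19.9 in replicate 1 (rank 1256) and 9.65 in replicate 2 (rank 1705). An IDR peak lay farther upstream in the same promoter, so nhr-25 was 1 of the 7 genes with both. The summit at col-10, a cuticle collagen gene, lay 234 bp upstream with a pooled signal of 25.8, and with 12.9 (rank 2769) and 10.3 (rank 1496) in replicates 1 and 2. It is near the lower limit of the rule in replicate 1 and was printed above with its CGATAA. Its WGATAR site lay outside the printed window. At pdi-6, a protein disulfide isomerase of the collagen-modifying list, the pooled signal was 14.4, with 13.3 (rank 2583) and 10.7 (rank 1383) in the replicates. At che-14, a patched-related gene of apical secretion, the pooled signal was 20.5, with 13.7 (rank 2438) and 11.8 (rank 1118).

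In or nearest to a gene of the epidermal lists lay 20 weaker shared peaks in 16 regions, 4 of them in a promoter. Of all 296 peaks 187 (63.2%) lay outside promoters, and no background share near lists of this size was computed. Peaks outside promoters also lay in or nearest to genes of other lists. Among these were the nuclear hormone receptors nhr-19 (pooled signal 27.7) and nhr-43 (27.6), the chemoreceptor srh-16 (25.8) and the neuropeptide gene flp-15 (26.7). The count of 20 therefore does not set the epidermal lists apart. The genes named here and next were chosen after their values were seen. In nhr-23, a nuclear receptor of the molting cycle, an intronic summit had a pooled signal of 27.03, with 16.6 in replicate 1 (rank 1755) and 19.2 in replicate 2 (rank 390). Inside elt-3, an epidermal GATA factor, a summit at nested noncoding RNA genes had a pooled signal of 24.8, with 19.8 (rank 1269) and 11.4 (rank 1212). In ceh-16, the engrailed homologue expressed in seam cells, an intronic summit had a pooled signal of 22.6, with 13.2 (rank 2640) and 21.3 (rank 318), and a WGATAR site 1.5 bp away. The value in replicate 2 is the highest there of all 296 peaks.

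Genes of the apical matrix and junctions had summits in introns or farther upstream. For noah-1, an apical matrix protein, the summit lay 3352 bp upstream with a pooled signal of 27.2. In ajm-1, a protein of the apical junction, it was intronic with a pooled signal of 26.9. In hmr-1, the cadherin of epidermal adhesion, 3 intronic peaks had pooled signals of 22.0, 19.8 and 18.7. The first 2 of them overlap and rest on the same peak in each replicate. The molting gene mlt-11 had 2 peaks about its upstream region with 25.98 and 11.5, which overlap and rest on the same peak in each replicate. For unc-70, which encodes beta-spectrin, 3 overlapping peaks of a single region had 26.2, 20.99 and 14.5, and all rest on the same peak of replicate 1. Overlapping peaks are therefore not separate sites of binding here.

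Within 20000 bp upstream of elt-1 lay 4 weaker shared peaks, with none in its promoter or the gene. Their summits were 11541, 7792, 6734 and 6529 bp upstream of the start of elt-1, with pooled signals of 26.7, 10.7, 22.5 and 15.1. Only the last had elt-1 as its nearest gene, and the other three were nearer to a 5′ end of aat-1, 1759, 5508 and 6566 bp away. The 2 nearest to elt-1 rest on the same peak in each replicate, with 23.8 in replicate 1 (rank 888) and 11.7 in replicate 2 (rank 1148). The IDR list had its highest signal at the elt-1 promoter, 823. The regulators elt-6, egl-18 and lin-26, the muscle regulator hlh-1, the intestinal GATA factor elt-2 and the pharyngeal regulator pha-4 had no weaker shared peak within 20000 bp.

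Among other regulators, 5 of 274 nuclear hormone receptor genes (1.82%) had a weaker shared peak in the promoter. For nhr-46 the pooled signal was 26.9, with 21.5 in replicate 1 (rank 1087) and 8.87 in replicate 2 (rank 2046), and the window held 1 AGATAA. The pooled signal was 26.5 at nhr-116, 24.0 at nhr-66 and 18.7 at nhr-57, and the 5th receptor was nhr-25. Of 63 ceh homeobox genes none had one, which allows up to 4.76%. Of 26 Wnt pathway genes 1 had one, mom-5, a frizzled receptor, with a pooled signal of 11.6. Of 11 heterochronic genes, which time development, 2 had one, lin-28 (25.2), an RNA-binding protein, and alg-1 (17.96), an Argonaute of the microRNA pathway.

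Ribosomal protein genes had weaker shared peaks in 5 of 83 promoters (6.02%), against 0.585% of all genes. The peaks were 4, since rpl-39 and rps-30 share 1, and none held WGATAR. For rpl-21 the pooled signal was 27.6, with 20.4 in replicate 1 (rank 1201) and 8.46 in replicate 2 (rank 2264). The shared peak of rpl-39 and rps-30 had 25.6, rpl-28 had 23.7 and rps-4 had 21.7. The IDR list held a further 15 of the 83 genes.

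For genes of other tissues, all lists with a count of 0 except the chemoreceptors are too short to tell it from the 0.585% of all genes. Of 27 body wall muscle, 22 intestine, 19 pharynx and 28 neuron genes none had a weaker shared peak in the promoter, which allows up to 11.1%, 13.6%, 15.8% and 10.7%. Of 1309 chemoreceptor genes, 100 neuropeptide genes and 81 histone genes none had one, which allows up to 0.229%, 3% and 3.70%. Only the chemoreceptor limit is below 0.585%, and that list was not tested. Of 24 germline and early embryo genes 1 had one, pie-1, which keeps transcription off in the early germline, with a pooled signal of 11.7. An intronic peak at the muscle myosin gene myo-3 had a pooled signal of 25.1.

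The strongest promoter peaks lay at genes of varied roles and are described in order of signal. The highest was at W06H8.6, with a pooled signal of 27.8, 19.1 in replicate 1 (rank 1355) and 14.7 in replicate 2 (rank 724). Next came vps-25, a subunit of the ESCRT-II sorting complex, with 27.8, and T14G11.1 with 27.8. The ubiquitin ligase gene wwp-1 had a pooled signal of 27.7, with 27.1 in replicate 1 (rank 665) and 14.5 in replicate 2 (rank 737), which makes it one of the 23 peaks within the first 1400 of both. At ZK154.6 the pooled signal was 27.7, with 3 WGATAR in the window. At adm-2, a membrane metalloprotease, it was 27.6 with none.

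Further down the 25, C14B9.10 shared the peak of rpl-21. The pooled signal was 27.5 at lin-66, a heterochronic regulator that the list of 11 does not hold, at ztf-11, a zinc finger factor, and at dao-2, and the dao-2 window held 3 WGATAR. The dao-2 peak had a signal of 14.8 in replicate 1 (rank 2131) and 18.3 in replicate 2 (rank 443). The neighbours C15B12.4 and C15B12.8 shared 1 peak of 27.5 with 2 AGATAA, and C06E2.5, which also had an IDR summit, had 27.5 with 3 AGATAA. The pooled signal was 27.02 at E01A2.1 and 26.9 at pbo-6, at the nucleotide sugar transporter gene nstp-8 and at W03F8.4. The last of the 25 were ZK1053.4 with 26.9, wdr-23, a negative regulator of the stress factor SKN-1, with 26.8, and 2 shared peaks. F25F2.1 shared 26.8 with cct-5, a chaperonin subunit, and cyc-2.1, cytochrome c, shared 26.7 with tctn-1, a protein of the ciliary transition zone.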

How the data were processed

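ELT-1::GFP ChIP-seq peaks of 2 replicates of 1 group were used as deposited, in narrowPeak format on ce11. Signal is the authors' peak value in column 7, on a scale not stated to be shared by the lists. The deposited −log10 q-value is capped at 3.53 in the pooled list (109 of the 296 peaks) and was not used for ranking. The aligner, peak caller and IDR threshold are not given in the sources used here. Depth per sample is unknown, so no precision was derived from it. The labels' antibody field reads elt-1, while the descriptions state anti-GFP. The authors derived the relaxed lists per replicate and on pooled replicates, and the IDR list from these, per the labels.

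Members were computed on ce11 against WBcel235 and Ensembl release 115. Both strands of 201 bp around each summit were searched for motifs, with flanks centred 1000 bp away that met no IDR or member peak. Fisher's exact test, two-sided, compared shares, with a threshold of 0.05, Benjamini-Hochberg adjustment within each family, conditional odds ratios and 95% intervals, and Wilson intervals for shares. For a count of 0 the upper limit is 3 counts of the total. Intervals cover counting error only. The members, gene lists and tests were chosen with earlier results of these data known. Named genes are the 25 with the highest member signal in the promoter, up to 4 per list, and elt-1, elt-3, elt-6, egl-18, lin-26, nhr-25, nhr-23, hlh-1, elt-2 and pha-4. Other genes are marked as chosen after their values were seen. Alternatives covered the rank limit, overlap, merging, window, motif and promoter definitions, and each replicate alone. Procedures were tested on simulated data. Software was SciPy 1.17.1, pandas 2.3.3, numpy 2.4.6 and matplotlib 3.10.9 under Python 3.11.15.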

Additional observations from a re-analysis of the deposited data

How the results depend on the processing

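No paired analysis was possible because there is 1 group of 2 replicates. Values are odds ratios unless stated, and where a value changed side or direction the cause was not tested. Of the alternative values, 62 stayed alike (the same direction and side of the threshold, or a count within 1.5 times), 12 turned direction, 11 lost and 5 gained a call, and 25 counts moved further. WGATAR against the flanks stayed alike under every alternative run. Against the IDR peaks it lost its call at rank 2000 (0.708) and, added after seeing the data, against the lowest 25% of IDR peaks (0.936). Against unshared peaks it lost its call within the middle range of signal (1.16). The promoter share against IDR peaks lost its call at rank 2000 (0.688), rank 4000 (0.894), 50% overlap (0.809), 1 peak per region (0.746), without peaks near an IDR summit (0.730) and with promoters of 500 bp (0.776) or 2000 bp (0.796).

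Promoter against other peaks in WGATAR, never called in the main comparison, turned direction at rank 2000 (0.943), rank 4000 (0.771), 50% overlap (0.919), 1 peak per region (0.985), windows of 50 bp (0.803), AGATAA alone (0.694) and promoters of 500 bp (0.761) or 2000 bp (0.918). Higher against lower signal turned at rank 2000 (0.604) and windows of 200 bp (0.933). The X share passed the threshold at rank 4000 (0.703).

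The rank limit set the size of the group: 114 peaks at 2000 and 628 at 4000, with 196 at 50% overlap. Genes with a promoter peak numbered 45 at 2000, 284 at 4000 and 185 with 2000 bp promoters. The 6-mers called against flanks were 68 at 2000, 527 at 4000, 207 at 50% overlap and 181 in windows of 50 bp. Against IDR peaks they were 0 at 2000, 50% overlap and the lowest 25% of IDR peaks, 15 at 4000, 6 in 50 bp windows and 1 in 200 bp windows or with 1 peak per region.

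With only 1 replicate in the rule, without replicate 1 and without replicate 2 in turn, the group held 1628 to 1690 peaks and 702 to 709 genes, and 736 to 755 6-mers were called against flanks and 225 to 261 against IDR peaks. WGATAR then ranged from 0.747 to 0.778 for promoter against other peaks and from 1.24 to 1.54 for higher against lower signal, both past the threshold. The promoter share ranged from 0.818 to 0.852, the latter, without replicate 2, not past the threshold, and the X share from 0.690 to 0.729, both past it. Depth is unknown, and the number of peaks limits every interval.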
